A study of Mus musculus with 4 samples.

Results

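The desmosomal cadherins and plakophilins described here are 10 genes, Dsg1a, Dsg1b, Dsg2, Dsg3, Dsc2, Dsc3, Pkp1, Pkp3, Dsp and Cdsn, of the 25814 genes listed for each library. They were chosen by gene symbol, and all 10 were found in each of the tables. Keratinocytes (KCs), the main cells of the epidermis, were prepared from tails of adult mice of strain 129/sv and grown untreated in serum-free medium with 0.06 mM calcium. RNA selected for poly(A) was sequenced from 2 libraries labelled Wildtype (WT) and 2 labelled Nfat5-Knockout (Nfat5-/-). The disrupted gene encodes NFAT5, a transcription factor known for the response to osmotic stress, and the WT animals were littermates according to the study. The disruption is not limited to skin. The study describes the mice of this background as small, with kidney atrophy and a lasting high blood sodium. The labels speak of independent experiments for each genotype and give no dates. The time these cultures were kept before RNA was taken is not given in the sources used here.

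Desmosomes are the spot-like junctions by which neighbouring KCs hold together. Desmogleins (Dsg) and desmocollins (Dsc) are cadherins that cross the membrane and bind, with the help of calcium, their counterparts on the next cell. Inside the cell, plakoglobin (Jup) and plakophilins (Pkp) link their tails to desmoplakin (Dsp), which holds the keratin filaments. Basal KCs mostly use Dsg3, Dsc2 and Dsc3, whereas Dsg1 and Dsc1 are typical of the upper layers. Corneodesmosin, the product of Cdsn, is added to desmosomes late, and kallikreins cut these late junctions when corneocytes are shed. The question here is whether the RNA of the desmosome genes differed between the labelled genotypes.

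Depth was between 16219445 and 23494436 reads in genes per library, so that 3 reads, taken as the floor, equal 0.128 to 0.185 CPM (reads scaled to the gene reads of a library). The RNA of Nfat5 did not separate the labels, with 1.67 and 3.002 RPKM (reads per exon length, corrected for library depth) in the WT libraries against 2.02 and 2.78 RPKM in those of Nfat5-/- (log2 fold change 0.09, SE 0.26), and each direction below therefore rests on the labels. The cells carried the keratins of basal KCs at high levels, with summed levels of 7 basal markers between 11254 and 13268 RPKM in the 4 libraries. Krt1 and Krt10, the keratins of the upper layers, stayed below 1 RPKM in each library. Summed markers of fibroblasts, leukocytes and endothelium stayed below 4 RPKM, with Lum, Cd207 and Cdh5 below 3 reads in each library.

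The largest difference was found in the genes for desmoglein 1. The mouse has 3 Dsg1 copies, and of these Dsg1a and Dsg1b rose in Nfat5-/- KCs, while the other 8 members did not pass the test. Dsg1b measured 0.501 and 0.501 RPKM in the WT libraries against 2.27 and 3.06 RPKM in those of Nfat5-/-. Dsg1a measured 0.148 and 0.103 RPKM in the WT libraries against 0.489 and 0.755 RPKM in those of Nfat5-/-. Both Nfat5-/- libraries lay above both WT libraries in each copy. The third copy, Dsg1c, had 0, 3, 2 and 1 reads in the 4 libraries and did not reach the filter on low counts.

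Counts of reads were compared with the quasi-likelihood test of edgeR across 12614 genes, and a gene passed at a Benjamini-Hochberg adjusted p under 0.05. For Dsg1b, 34 and 44 reads in WT stood against 217 and 236 reads in Nfat5-/-, which is 2.42 on the log2 scale (SE 0.25, adjusted p by edgeR 0.0129). For Dsg1a, 14 and 13 reads in WT stood against 67 and 82 reads, which is 2.34 on the log2 scale (SE 0.39, adjusted p by edgeR 0.0416). With other processing, given below, Dsg1a passed in 10 of 14 settings and Dsg1b in 13 of 14. Thus 2 of 10 members passed, both higher in Nfat5-/-, where 1.27% of all tested genes passed in either direction and 0.943% passed as higher. In 2 of 10 members the groups did not overlap in RPKM, and over all tested genes this share was 46.5%. Another count asked for a mean in Nfat5-/- at least 2-fold that of WT and reaching 2 RPKM or more, with the groups apart. Dsg1b alone of the members met it, against 0.6% of the genes listed, and 0 of 10 met it with 5 RPKM in place of 2, against 0.337%. Both shares are over all 25814 genes listed, of which 15825 to 16330 had a read in a given library, and not over the tested genes.

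**Figure D1:**
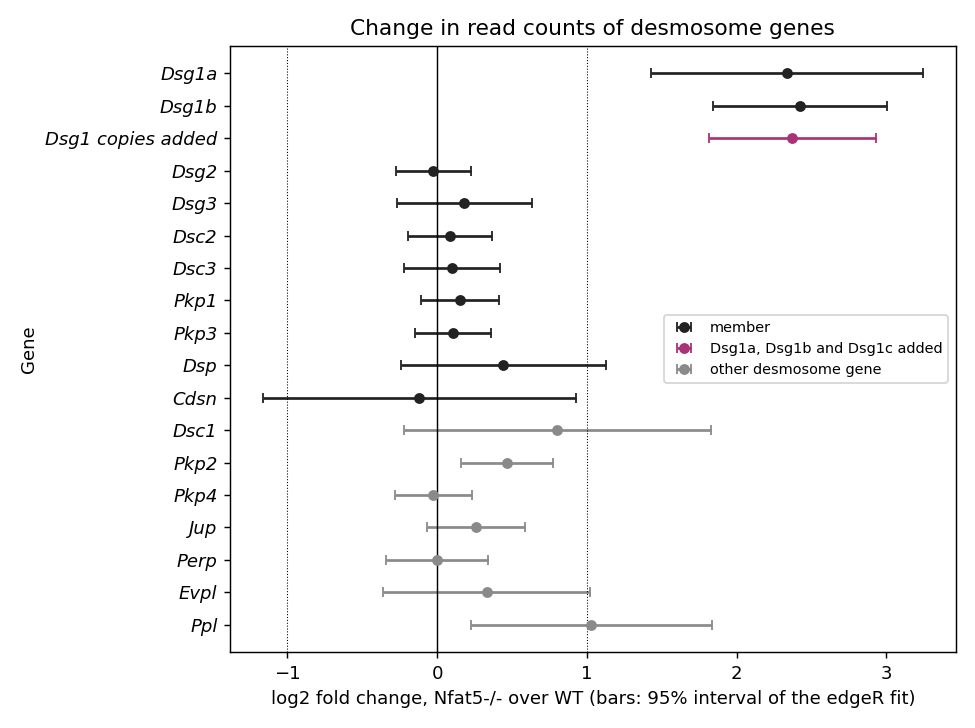
Log2 fold change of read counts, Nfat5-/- over WT (x axis, points) with the 95% interval of the edgeR fit (bars) for the 10 members in black, the 3 Dsg1 copies added together in purple and 7 other desmosome genes in grey; dotted lines mark 2-fold changes. Dsg1a (2.34) and Dsg1b (2.42) stand apart from the other members, which lie between -0.12 (Cdsn) and 0.44 (Dsp).

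The Dsg1 copies are so alike that their reads are hard to keep apart. The coding sequences of Dsg1a and Dsg1b were identical at 97.0% of aligned bases, and those of Dsg1a and Dsg1c at 96.0%. Dsg1b and Dsg3, which belong to the same family, were identical at 66.4%. Reads of this study were 59 bases long, and 44.9% of the 59-base windows of the Dsg1b transcript recur in other annotated transcripts, nearly all of them in a Dsg1 copy. For Dsg1a the share was 32.7%. Of the other members, Dsp shared 4.57% of its windows with Gm10129, a gene on the opposite strand within it, Dsg2 shared 3.34%, Dsg3 0.116%, and the others none.

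In the deposited counts, 61.6% of the exon reads of Dsg1b and 71.6% of those of Dsg1a had a single place in the genome. Uniquely placed exon reads of Dsg1b numbered 21 and 27 in WT and 127 and 149 in Nfat5-/-. For Dsg1a these were 11 and 11 in WT and 47 and 57 in Nfat5-/-. The higher values of Nfat5-/- were thus also seen in reads that fit 1 copy only. Reads that span a junction between exons numbered 2 and 8 for Dsg1b in WT and 40 and 46 in Nfat5-/-, and 2 and 0 for Dsg1a in WT against 8 and 8.

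When the 3 copies were added into 1 feature, 48 and 60 reads in WT stood against 286 and 319 reads in Nfat5-/-. The summed level was 0.638 ± 0.0158 RPKM in WT (SD, n = 2) and 3.30 ± 0.751 RPKM in Nfat5-/- (SD, n = 2), and the log2 fold change was 2.37 (SE 0.24, 95% interval 1.81 to 2.93, edgeR adjusted p 0.0121). Dsg1a took 34.4% and 28.9% of the unique exon reads of Dsg1a and Dsg1b in WT (Wilson 95% intervals 20.4% to 51.7% and 17.0% to 44.8%) and 27.0% and 27.7% in Nfat5-/- (20.96% to 34.1% and 22.0% to 34.1%). These intervals overlap, are wide in WT and cover counting error only, and a difference in the split was not tested.

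The Dsg1 result depends on the Nfat5-/- libraries of which there are only 2. Without Nfat5-/- replicate 2 the log2 fold change of the added copies was 2.09 with an edgeR adjusted p of 0.0775, and 0 of 10 members passed. Without Nfat5-/- replicate 1, Dsg1b passed and Dsg1a did not, with a log2 fold change of 2.63 (edgeR adjusted p 0.102). In each of these comparisons 1 library stood for Nfat5-/-, with its spread assumed to equal that of WT, and 16 and 31 genes passed in all.

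**Figure D2:**
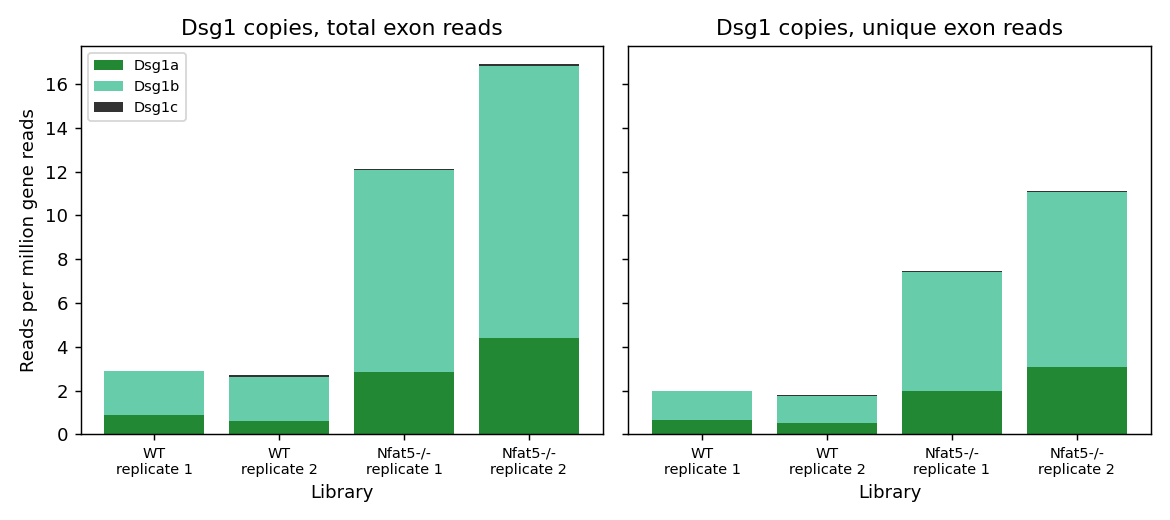
Reads of the Dsg1 copies as CPM (y axis) in the 4 libraries (x axis), with total exon reads on the left and uniquely placed exon reads on the right; stacked bars show Dsg1a, Dsg1b and Dsg1c. Total exon reads reached 2.90 and 2.73 CPM in the WT libraries and 12.1 and 16.9 CPM in Nfat5-/-, and the unique reads show the same order of the groups.

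Despite the rise, Dsg1 stayed a small part of the desmogleins. Dsg3, the desmoglein typical of basal KCs, measured 143 and 101 RPKM in the WT libraries against 120 and 153 RPKM in those of Nfat5-/-. WT replicate 1 lay between the Nfat5-/- libraries, so the groups overlapped. Dsg3 made up 91.8% ± 2.22 of the summed desmoglein level in WT and 91.1% ± 0.575 in Nfat5-/-, and the Dsg1 copies 0.491% ± 0.0967 and 2.19% ± 0.137 (SD, n = 2 each). The log2 ratio of Dsg1 to Dsg3 levels was -7.79 and -7.33 in WT and -5.44 and -5.32 in Nfat5-/-, a difference of 2.18. Its exact permutation p was 0.333 (two-sided), the smallest that 2 against 2 libraries can give, and 0.889 after adjustment over the 4 ratios compared.

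Neither Dsg3 nor Dsg2 passed the test. The log2 fold change of Dsg3 was 0.18 (SE 0.19, edgeR adjusted p 0.719), and its 95% interval ran from 0.830-fold to 1.55-fold. Dsg2, a desmoglein found in most epithelia and also in simple ones, measured 9.53 and 10.3 RPKM in the WT libraries against 9.35 and 10.05 RPKM in those of Nfat5-/-. Its log2 fold change was -0.03 (SE 0.11, edgeR adjusted p 0.939), with a 95% interval from 0.825-fold to 1.17-fold. The ratio of Dsg2 to Dsg3 overlapped between the groups, at 6.65% and 10.2% in WT and 7.80% and 6.56% in Nfat5-/-.

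The desmocollins showed levels close to each other in the 4 libraries. Dsc3 measured 67.9 and 54.0 RPKM in the WT libraries against 61.3 and 67.7 RPKM in those of Nfat5-/-. Dsc2 measured 25.8 and 23.1 RPKM in the WT libraries against 24.0 and 27.2 RPKM in those of Nfat5-/-. For both genes WT replicate 1 lay within or above the range of Nfat5-/-, and the groups overlapped. The 95% intervals ran from 0.858-fold to 1.34-fold for Dsc3 and from 0.873-fold to 1.29-fold for Dsc2, with edgeR adjusted p-values of 0.788 and 0.798. A 2-fold difference in RNA lay outside these intervals. Dsc2 stood at 38.1% and 42.7% of the Dsc3 level in WT and at 39.1% and 40.1% in Nfat5-/-, with an exact permutation p of 1. Dsc1, the desmocollin of the upper layers, reached at most 0.180 RPKM, from 8, 9, 19 and 14 reads, and did not pass (edgeR adjusted p 0.455).

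Intron reads, counted apart from exon reads, were compared in the 8 members with at least 10 of them. In Dsg3 both Nfat5-/- libraries lay above both WT libraries, which 9.72% of genes with at least 10 intron reads also showed. In Dsg2 and Dsp both Nfat5-/- libraries lay below both WT libraries, at 0.495 and 0.617 of the WT mean, which 36.6% of these genes also showed. Intron reads made up 1.97% and 1.94% of all gene reads in the WT libraries against 1.85% and 1.79% in those of Nfat5-/-.

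Among the plaque proteins, Pkp1 was the most abundant member. Pkp1, the plakophilin of stratified epithelia that binds desmoplakin, measured 202 and 185 RPKM in the WT libraries against 202 and 223 RPKM in those of Nfat5-/-. Pkp3, found in nearly all epithelia, measured 67.0 and 65.9 RPKM in the WT libraries against 66.8 and 74.1 RPKM in those of Nfat5-/-. In both genes 1 Nfat5-/- library lay within the WT values and the other above them. The 95% intervals of the change ran from 0.930-fold to 1.33-fold for Pkp1 and from 0.904-fold to 1.28-fold for Pkp3, with edgeR adjusted p-values of 0.580 and 0.706. Pkp3 stood at 33.1% and 35.7% of the Pkp1 level in WT and at 33.1% and 33.2% in Nfat5-/- (exact permutation p 0.667).

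Dsp, which ties the plaque to keratin filaments, measured 140 and 98.2 RPKM in the WT libraries against 112 and 207 RPKM in those of Nfat5-/-. Nfat5-/- replicate 2 was the highest library and WT replicate 2 the lowest, while the other 2 lay between them in the reverse order of genotype. The log2 fold change was 0.44 (SE 0.29, edgeR adjusted p 0.545), and the 95% interval from 0.845-fold to 2.18-fold does not exclude a 2-fold rise. Without Nfat5-/- replicate 2 the log2 fold change was -0.088, and without a filter on low counts, where 1137 genes passed in place of 160, Dsp passed (edgeR adjusted p 0.00315).

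Cdsn, the gene of corneodesmosin, was the member with the widest spread. It measured 11.2 and 3.57 RPKM in the WT libraries against 6.20 and 7.06 RPKM in those of Nfat5-/-, from 501, 213, 402 and 365 reads. Both Nfat5-/- values thus lay between the WT values, which differed 3.12-fold from each other. The log2 fold change was -0.12 (SE 0.44, edgeR adjusted p 0.935), and the 95% interval ran from 0.447-fold to 1.90-fold. Without WT replicate 1 the log2 fold change was 0.92 (edgeR adjusted p 0.0539) and without WT replicate 2 it was -0.73 (edgeR adjusted p 0.0499). In each of these comparisons 1 library stood for WT, with its spread assumed to equal that of Nfat5-/-. The direction of Cdsn therefore rests on which WT library is kept.

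**Figure D3:**
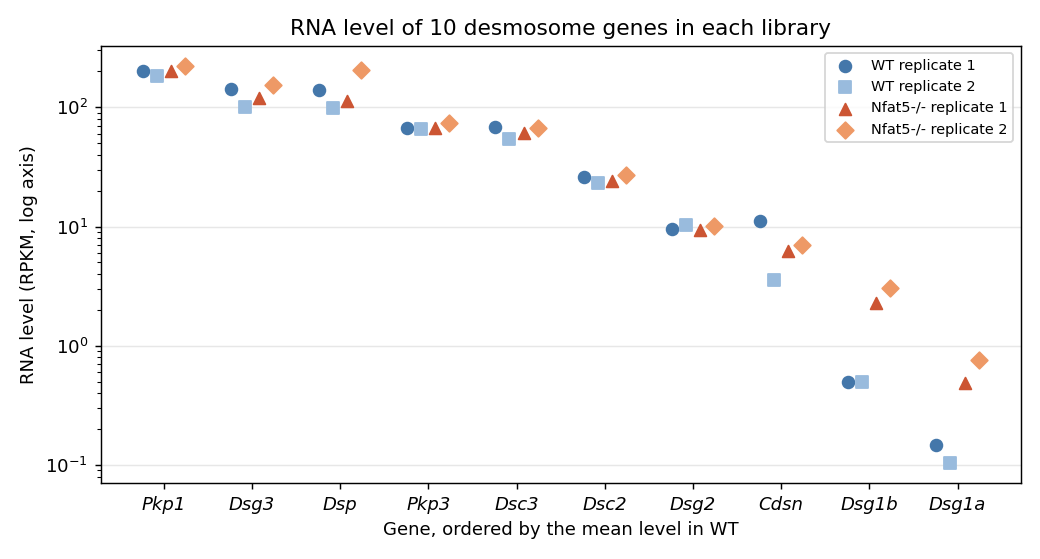
RNA level in RPKM (y axis, log axis) of the 10 members (x axis, ordered by their mean in WT) in the 4 libraries, 1 point per library. Levels run from 223 RPKM for Pkp1 to 0.103 RPKM for Dsg1a, and only in Dsg1b and Dsg1a are both Nfat5-/- points above both WT points.

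Ordered by their level per length, the members kept nearly the same ranks in both genotypes. In WT the means were 193 RPKM for Pkp1, 122 for Dsg3, 119 for Dsp, 66.4 for Pkp3, 60.9 for Dsc3, 24.5 for Dsc2, 9.93 for Dsg2, 7.37 for Cdsn, 0.501 for Dsg1b and 0.126 for Dsg1a. The neighbours Dsg3 and Dsp, Pkp3 and Dsc3, and Dsg2 and Cdsn overlapped between the WT libraries, so their order within each pair is not set. In Nfat5-/- the order was the same apart from Dsp, which at 160 RPKM stood above Dsg3 at 137 RPKM and overlapped with it and with Pkp1.

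In 8 of 10 members the difference between the genotype means in log2 RPKM did not exceed both of the differences between replicates. The exceptions were Dsg1a and Dsg1b. WT replicate 1 was above WT replicate 2 in 8 of 10 members, and Nfat5-/- replicate 2 was above replicate 1 in 10 of 10. Of the 8 members of at least 1 RPKM in each library, which leaves out Dsg1a and Dsg1b, 7 showed the former order, 8 the latter and 7 both. Over all genes of at least 1 RPKM in each library these shares were 48.8%, 40.3% and 20.5%. Of 8 markers of suprabasal KCs, 3 (Krt1, Sbsn and Krtdap) showed both of these orders. The summed level of all 8 was 68.5 and 33.0 RPKM in the WT libraries against 72.0 and 101 RPKM in those of Nfat5-/-, most of it from Sbsn. The part of these markers in the differences between libraries was not tested.

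**Figure D4:**
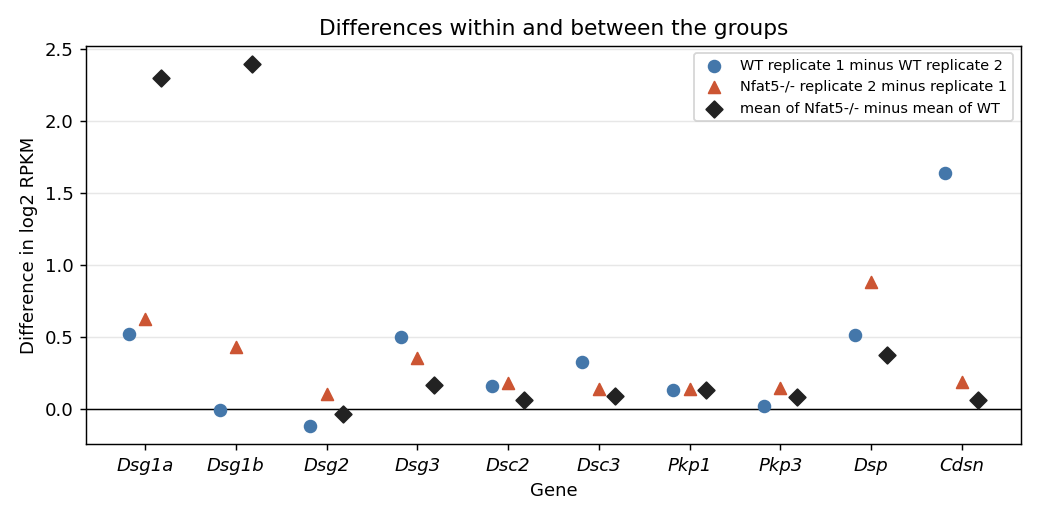
Differences in log2 RPKM (y axis) for each member (x axis), within WT (replicate 1 minus replicate 2), within Nfat5-/- (replicate 2 minus replicate 1) and between the group means (Nfat5-/- minus WT). The difference between groups exceeds both differences within groups for Dsg1a (2.30) and Dsg1b (2.40), while Cdsn differs by 1.64 within WT and Dsp by 0.89 within Nfat5-/-.

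The cadherin members share 1 chromosomal cluster. On GRCm38 the genes Dsc3, Dsc2 and Dsc1 (minus strand) and Dsg1c, Dsg1a, Dsg1b, Dsg4, Dsg3 and Dsg2 (plus strand) lie in this order on chromosome 18, from 19960930 to 20604521, with no other listed gene lying within this span. Dsg1a spans 20310811 to 20343350 and Dsg1b 20376729 to 20410196, with 15 exons each. Dsg4, a desmoglein of the hair and upper epidermis that follows Dsg1b, had 5 and 2 reads in WT and 11 and 20 reads in Nfat5-/-. It did not reach the filter on low counts, and without that filter its edgeR adjusted p was 0.0656. Dsg3 and Dsg2 did not pass as described. The levels in the cluster thus ran from 0 RPKM for Dsg1c in WT replicate 1 to 153 RPKM for Dsg3.

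**Figure D5:**
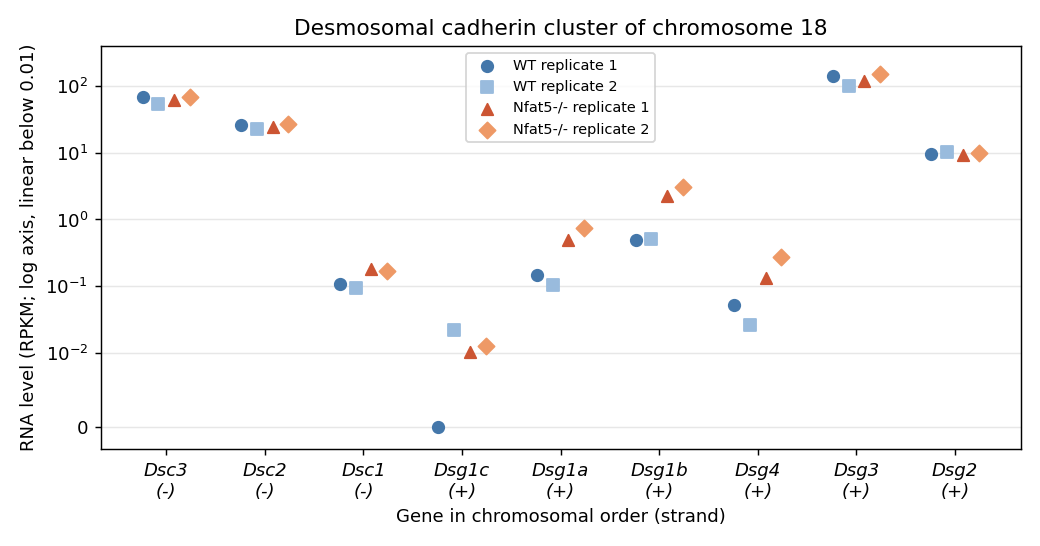
RNA level in RPKM (y axis, log axis, linear below 0.01) of the 9 genes of the cadherin cluster in chromosomal order (x axis, with strand) in the 4 libraries. Dsc3, Dsc2, Dsg3 and Dsg2 at the ends are between 9.35 and 153 RPKM with overlapping groups, and the genes in the middle are below 4 RPKM. Of the latter, Dsc1, Dsg1a, Dsg1b and Dsg4 are higher in both Nfat5-/- libraries, as are 21.6% of all tested genes, and Dsg1c is not. Only Dsg1a and Dsg1b passed the test, whereas Dsc1 did not pass and Dsg4 did not reach the filter on low counts.

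The members outside the cluster lie apart. Pkp1 spans 135871395 to 135919207 on chromosome 1, Pkp3 141078218 to 141090510 on chromosome 7, Dsp 38151294 to 38198577 on chromosome 13 and Cdsn 35552128 to 35557180 on chromosome 17. Cdsn has 2 exons, whereas the other members have 15 to 26. Pkp1 and Dsp overlap another listed gene each (Gm36938 and Gm10129), and since no source used here says whether strand was used in counting, reads of Dsp and Gm10129 cannot be told apart by strand. Between 98.1% (Dsp) and 100% of the exon reads of these 4 genes were unique.

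Other genes of desmosomes were examined from a list of 9, of which 7 were tested. None passed in the edgeR test, 2 of 7 had an unadjusted p under 0.05, against 14.6% of all tested genes, and DESeq2 called 0, against 3.39% of all tested genes. Their log2 fold changes ran from -0.03 (Pkp4) to 1.03 (Ppl), with a median of 0.33, against a median of -0.01 over all 12614 genes and of 0.13 over the 10 members. Ppl, the gene of periplakin, which links desmosomes to the cornified envelope, measured 8.56 and 4.66 RPKM in the WT libraries against 9.52 and 17.0 RPKM in those of Nfat5-/- (edgeR adjusted p 0.239). Pkp2, a plakophilin mostly of simple epithelia and heart, measured 12.4 and 15.5 RPKM in the WT libraries against 19.2 and 18.9 RPKM in those of Nfat5-/- (edgeR adjusted p 0.161). Jup, the gene of plakoglobin, measured 369 and 348 RPKM in the WT libraries against 371 and 472 RPKM in those of Nfat5-/-. In these 3 genes both Nfat5-/- libraries lay above both WT libraries, as in 21.6% of all tested genes by RPKM, and the differences did not pass. In the list, the groups did not overlap in 4 of 7 tested genes, against 46.5% of all tested genes. Perp, a membrane protein of desmosomes, was the most abundant of the list with 629 to 822 RPKM and had both Nfat5-/- values between those of WT.

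Adherens junctions, the calcium-dependent junctions tied to actin, were examined in 9 genes, and none passed in the edgeR test. Of these, 1 of 9 (Vcl) had an unadjusted p under 0.05 in the edgeR test, against 14.6% of all tested genes. DESeq2 called 0, against 3.39%. The log2 fold changes lay between -0.03 (Nectin1) and 0.52 (Vcl, edgeR adjusted p 0.242), with a median of 0.22. Cdh1, the gene of E-cadherin, measured 243 and 211 RPKM in the WT libraries against 252 and 292 RPKM in those of Nfat5-/- (edgeR adjusted p 0.365). Both Nfat5-/- libraries thus lay above both WT libraries, as in 21.6% of all tested genes.

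For peptidases that cut desmosomal proteins and their inhibitors, 8 of 10 genes were tested. None passed in the edgeR test, whereas 3 of 8 had an unadjusted p under 0.05 (14.6% of all tested genes) and DESeq2 called 2, Klk6 and Klk7 (3.39% of all tested genes). The log2 fold changes ran from -0.04 (Adam17, a sheddase of cell surface proteins) to 1.83 (Klk5), with a median of 0.16. Klk5, a kallikrein that cuts Dsg1 and Cdsn, rested on 4, 6, 17 and 22 reads (edgeR adjusted p 0.172). Klk7, which also cuts Cdsn, measured 4.57 and 3.002 RPKM in the WT libraries against 7.32 and 8.35 RPKM in those of Nfat5-/- (edgeR adjusted p 0.0812). Klk14 had 1, 0, 5 and 14 reads and did not reach the filter on low counts. Without that filter, where 1137 genes passed in place of 160, its log2 fold change was 3.86 (edgeR adjusted p 0.0238). Spink5, the gene of the inhibitor LEKTI that restrains kallikreins, measured 4.95 and 2.23 RPKM in the WT libraries against 2.92 and 5.02 RPKM in those of Nfat5-/-, with overlapping groups (edgeR adjusted p 0.887).

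Other cell markers differed between the labelled genotypes along with Dsg1. Over all tested genes, 0.943% passed the edgeR test as higher in Nfat5-/- and 0.325% as lower. Of 4 keratins of simple epithelia 3 rose (Krt7, Krt8 and Krt18), and the summed level of the list was 407 and 673 RPKM in WT against 1494 and 1680 RPKM in Nfat5-/-. Of 5 smooth muscle markers 4 rose (Acta2, Tagln, Myh11 and Cnn1), with summed levels of 184 and 151 RPKM against 518 and 819 RPKM. Myh11 had 1 and 1 reads in WT against 22 and 40 reads in Nfat5-/-, and Des, another muscle marker, had at most 1 read. Of 8 suprabasal markers, 7 had a log2 fold change above 0 (median 0.75), against 48% of all tested genes. An unadjusted p under 0.05 in the edgeR test was found for 4 of them (14.6% of all tested genes), and DESeq2 called 2 (3.39%). Krtdap passed in the edgeR test, from 22 and 17 reads to 122 and 127 reads (edgeR adjusted p 0.0251). Tgm1 (log2 fold change 1.60, edgeR adjusted p 0.0874), Krt1 (1.75, edgeR adjusted p 0.275) and Lor (0.998, edgeR adjusted p 0.134) did not pass. In each of them both Nfat5-/- libraries lay above both WT libraries, as in 21.6% of all tested genes by RPKM. The same held for Ivl (0.47) and, in RPKM, for Flg, whereas Krt10 (-0.49) was lower in both Nfat5-/- libraries and the groups overlapped in Sbsn (0.51), none of them past the threshold. Most reads of Flg lay in introns (626, 828, 881 and 617), and its exon reads numbered 24 and 44 in WT against 77 and 159 in Nfat5-/-. The log2 fold change of Flg was 0.06 on total gene reads and 1.74 on exon reads (edgeR adjusted p 0.143). Of 6 melanocyte markers, 5 of them tested, Tyrp1 fell, and the sum was 7.54 and 7.20 RPKM against 2.30 and 3.20 RPKM. Of 7 basal markers Lamb3 fell, from 397 and 429 RPKM to 190 and 204 RPKM (edgeR adjusted p 0.0123). The part of these markers in the Dsg1 result was not tested. In RNA of whole cultures, more cells with Dsg1 and more Dsg1 RNA per cell cannot be told apart.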

How the data were processed

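The deposited tables hold read counts per gene, which the authors obtained in CLC Genomics Workbench (default RNA-Seq settings, GRCm38), and RPKM values by the authors (exon reads over exon length and mapped reads). How reads with several possible places were assigned, and whether strand was used, is not given in the sources used here. Groups and replicate numbers came from sample titles. The labels do not say which animals the 2 libraries of a group came from, so p-values measure only the spread between these libraries.

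Total gene reads of the 4 libraries were filtered with filterByExpr, scaled by TMM and tested with edgeR 4.0.16 (R 4.3.3), two-sided, with Benjamini-Hochberg adjustment over 12614 genes. SE is the log2 fold change over the square root of F, and 95% intervals use the t distribution of the fit. Levels are RPKM. Ratios used exact permutation tests (SciPy 1.17.1). Shared 59-base windows and coding identity came from GENCODE M21 transcripts (GRCm38, Biopython 1.88). The edgeR test was checked on simulated counts. Alternatives used DESeq2 1.42.0, limma 3.58.1 (genes above 0 RPKM in every library), other filters, scalings and reads, a replicate block and each library left out. Named genes were all members, Dsg1c, partner and marker genes past the threshold, defining markers at or near 0, and extremes of each partner list. Some further genes (Jup, Perp, Pkp2, Cdh1, Spink5, Klk6, Klk7, Klk14, Dsc1, Dsg4 and suprabasal markers other than Krtdap) were picked outside this rule after their values were seen. Members and lists were chosen with earlier results of these data known.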

Additional observations from a re-analysis of the deposited data

Results flagged for a closer look

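Intron reads, which the tests above used only within the total, were higher in both Nfat5-/- libraries than in both WT libraries for Dsg3 alone of the 8 members with at least 10 intron reads in all. Dsg3 had 53 and 62 intron reads in WT and 88 and 67 in Nfat5-/-, or 3.27 and 2.87 against 3.75 and 3.59 CPM, a ratio of group means of 1.20. Over all genes with at least 10 intron reads, 9.72% were higher without overlap in this way and 46.3% did not overlap in either direction.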

How the results depend on the processing

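Of 10 members, 2 passed at an adjusted p under 0.05, and 10 of 14 alternatives left this count within 1.5 times. It was 1 with limma-trend on log2(RPKM + 1), and 0 to 3 with each library left out. Dsg1b passed in 13 of 14 alternatives and Dsg1a in 10 of 14. Dsp passed only without a filter on low counts (edgeR adjusted p 0.00315), where 1137 genes passed in all against 160. The added Dsg1 copies passed in 13 of 14, with a log2 fold change of 2.09 to 2.62 when each library was left out and of 1.38 with limma-trend on log2(RPKM + 1), a scale that understates changes of low genes. Of the partner genes 0 passed, 7 passed without a filter, 2 with DESeq2 (427 genes in all) and 0 to 2 with each library left out. No member qualified by the RPKM ratio (0 of 10) with a floor of 5 RPKM. Genes passing in all numbered 268 and 478 without WT replicates 1 and 2, and 31 and 16 without Nfat5-/- replicates 1 and 2. With each library left out, log2 fold changes ran from -0.096 to 0.043 for Dsg2, -0.050 to 0.47 for Dsg3, -0.025 to 0.19 for Dsc2, -0.057 to 0.29 for Dsc3, -0.088 to 0.83 for Dsp and -0.73 to 0.92 for Cdsn, so none of these has a settled direction. Cdsn was also 0.031 and 0.062 with limma-trend (pseudocounts of 1 and 0.1). The cause of these shifts was not tested.

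With the replicate number as a block, 1 member passed (Dsg1b), Dsg1a had a log2 fold change of 2.32 and an edgeR adjusted p of 0.0709, and Cdsn of 0.057. In all 132 genes passed with the block. Same-numbered libraries are of different animals, and their deviations from the group means correlated at -0.066 across genes. With 2 libraries per group this is a single correlation. It cannot show whether same-numbered libraries shared a preparation, which the labels do not give. The reads of Dsg1c lay at or under the floor of 3 in each library, so a difference was not detectable at this depth.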

Other observations

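Intron reads of Dsg2 and Dsp, given above relative to depth, were a small part of their gene reads. Dsg2 had 23 and 30 intron reads in WT and 15 and 14 in Nfat5-/-, and Dsp had 133 and 154 against 86 and 108. The total reads of both genes did not pass the test, as given above. Intron reads made up 1.22% of the gene reads of Dsg2 and 0.447% of those of Dsp.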
